A study of Drosophila melanogaster with 16 samples.

Results

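The glutathione S-transferases (GSTs) of the adult fly head were followed through recovery from a single exposure to ethanol vapor. Members were taken from the array annotation by name: each gene with a current symbol beginning Gst and a class letter (D, E, O, S, T or Z), together with Mgstl and gfzf. This gave 36 genes of the 11982 named genes on the array, namely 11 of the delta class (GstD), 13 of the epsilon class (GstE), 3 omega (GstO), 1 sigma (GstS1), 4 theta (GstT), 2 zeta (GstZ), the microsomal enzyme gene Mgstl and gfzf, whose protein joins a GST domain to zinc fingers. Of the probe sets of a gene, the brightest by mean over the arrays stood for it. In all, 29 of the 36 genes (80.6%) passed the filter on low values and were tested.

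GSTs attach the tripeptide glutathione to reactive, electrophilic molecules, which makes these more soluble and ready for export, and several also reduce peroxides or clear the aldehydes left by lipid oxidation. The delta and epsilon classes are the large arthropod classes and are known for the metabolism of insecticides and plant toxins. In the fly most of their genes stand in tandem clusters, and expression of several of them depends on the stress-response transcription factor CncC (the fly Nrf2) and its inhibitor Keap1. The omega, sigma, theta and zeta classes are shared with vertebrates, and zeta enzymes act in tyrosine breakdown.

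The flies were males of the Berlin background strain, 2 to 4 days old. They breathed humidified air (7 arrays) or a 60% dilution of saturated ethanol vapor (7 arrays) for 30 min and then recovered in food vials for 0, 30, 60 or 90 min, or for 120, 180 or 210 min, with 1 array for each exposure and time. A further 2 arrays, A and B, came from flies given neither exposure. Heads were isolated from frozen flies, and each array of exposed flies carries RNA from 3 groups of 200 flies that were joined before extraction. All values below are log2 expression values, where a difference of 1 is a 2-fold change.

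The array medians lay between 2.88 and 3.03. The air arrays at 0, 60 and 120 min and the ethanol array at 120 min also carried transcripts of body tissues: the mean of 17 male reproductive tract and gut genes stood 5.95, 4.37, 4.84 and 3.21 above unexposed heads there, and no more than 0.10 above in the other exposed arrays. Photoreceptor markers, 5 genes kept, averaged 13.67 to 14.01 in all 16 arrays. Results are therefore also given without the 3 times 0, 60 and 120 min. Because the samples are whole heads, fewer cells of a type and less RNA per cell cannot be told apart. Each exposure and time has 1 array, so no p-value measures the spread between pools of exposed flies of the same time. For ethanol against air, p-values reflect how far the 7 matched differences vary. Against unexposed heads, the spread within groups also includes the change over recovery. Slopes within 1 exposure rest on the scatter of its 7 arrays about a line.

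GstE4 fell after ethanol, GstE7 and GstD2 rose, and the other 26 tested members did not pass the test for ethanol against air. GstE4 was 4.40-fold lower, GstE7 was 2.24-fold higher and GstD2 was 2.16-fold higher, each as the mean of 7 matched times. All 3 belong to the epsilon or delta class. Higher calls made up 6.90% of the 29 tested members (2 genes) against 0.419% of all 8110 genes tested, and lower calls 3.45% (1 gene) against 0.271% (limma, Benjamini-Hochberg adjusted p under 0.05 over all genes). By the unadjusted p under 0.05, 13 of 29 members (44.8%) differed, against 12.1% of all genes. The family had no common direction: 13 members had a positive mean difference and 16 a negative one, and the median was -0.05 beside -0.01 over all genes. The ethanol array was on the same side of its air array at all 7 times for 5 members, above for GstD1, GstD2 and GstE7 and below for GstE4 and GstS1. This held for 3.83% of all genes.

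**Figure D1:**
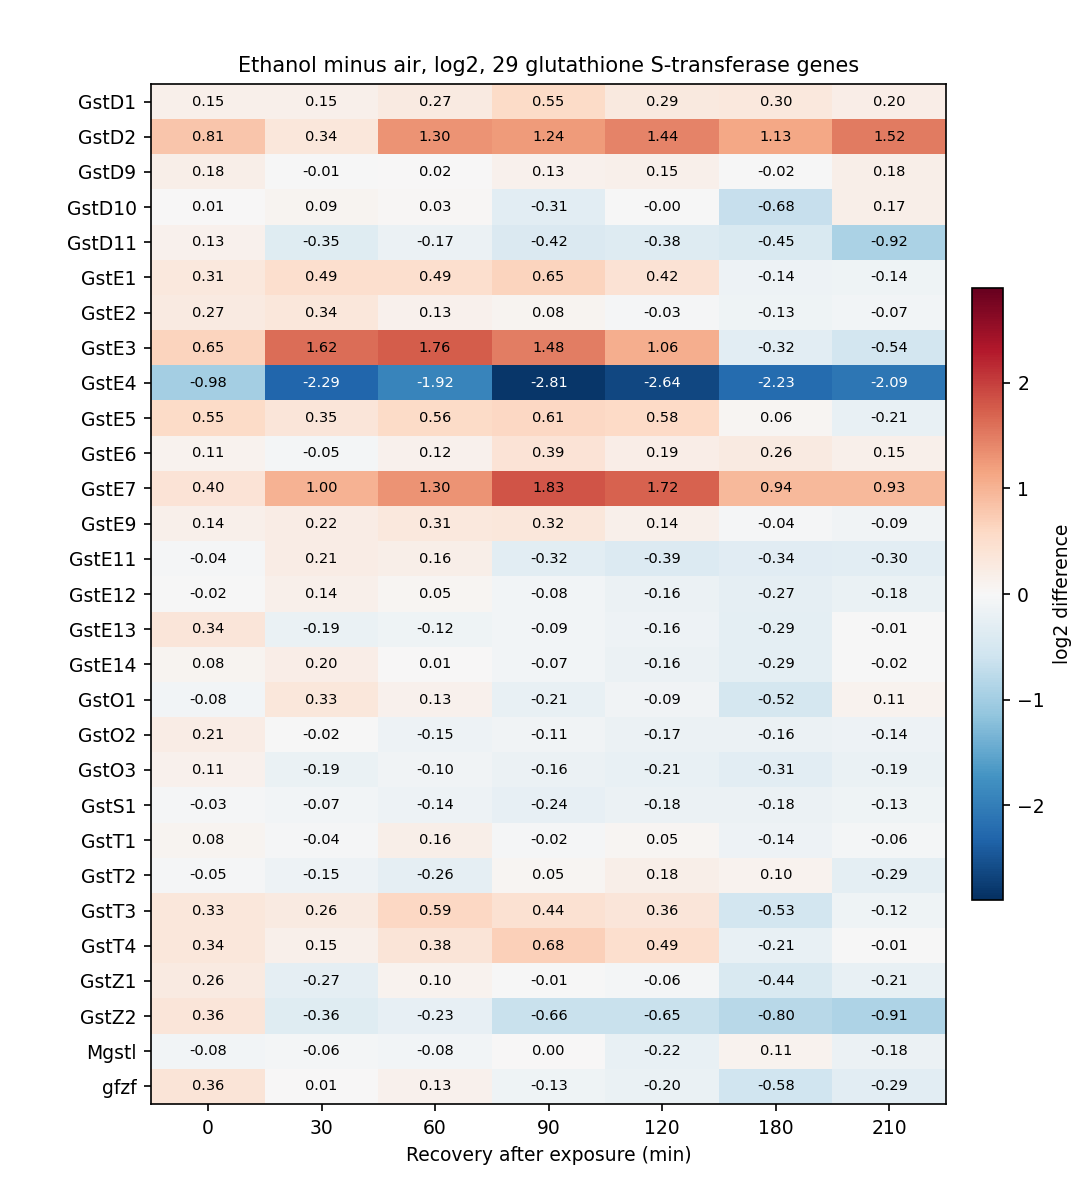
Difference between the ethanol and the air array of the same recovery time (log2, printed in each cell) for the 29 tested members, grouped by class, with minutes of recovery across. GstE4 is below air at every time, GstE7 and GstD2 are above air at every time, and GstE3 is above air up to 120 min and below it at 180 and 210 min.

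The epsilon class held the largest differences of the family in both directions. Its tandem cluster on chromosome 2R (18396638 to 18409835, Release 6) has 9 of the member genes within 13198 bases, in the order GstE10, GstE1, GstE2, GstE3, GstE4, GstE5, GstE6, GstE7 and GstE9. All but GstE10 passed the filter. GstE8 was not analysed here. GstE11, GstE12, GstE13 and GstE14 lie elsewhere on the same arm.

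GstE4 (chromosome 2R, 18403248 to 18404086), an epsilon-class enzyme gene, stood in air at 7.16, 8.47, 7.69, 8.61, 8.42, 7.76 and 8.47 in order of recovery time. After ethanol it stood at 6.18, 6.18, 5.77, 5.80, 5.78, 5.53 and 6.38. Unexposed heads had 8.19 and 8.20. Every ethanol array was below every air and unexposed array, so the groups did not overlap. GstE4 was the sole member of the family with this separation, which 0.58% of all genes showed in one or the other direction. The lowest air value was that of 0 min, and the matched difference was -0.98 there and between -1.92 and -2.81 at the later 6 times. On average GstE4 fell by 2.14 (SE 0.19, n = 7 matched times, limma adjusted p = 0.00458).

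The fall of GstE4 ran beside a fall of antennal genes. The 13 antennal marker genes tested include odorant-binding protein genes and the olfactory co-receptor gene Orco. Of these, 12 (92.3%, against 0.271% of all genes) were called lower after ethanol, with a median difference of -1.77, and none higher. Their mean level was 7.74 to 8.99 in air, 6.13 to 7.41 after ethanol, and 8.57 and 8.65 in unexposed heads. At the successive times the list's mean difference was -0.33, -1.93, -1.60, -1.49, -2.31, -2.14 and -2.04. As for GstE4, the smallest difference was at 0 min, where the air array was also the lowest of its group. That air array had a body-tissue mean 5.95 above unexposed heads, and the 0 min ethanol array 0.08. For GstE4 the 3 air arrays with body transcripts differed from the other 4 by -0.57. A part of body tissue in the low 0 min air values was not tested. The part of the antennal transcripts in the fall of GstE4 was not tested.

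**Figure D2:**
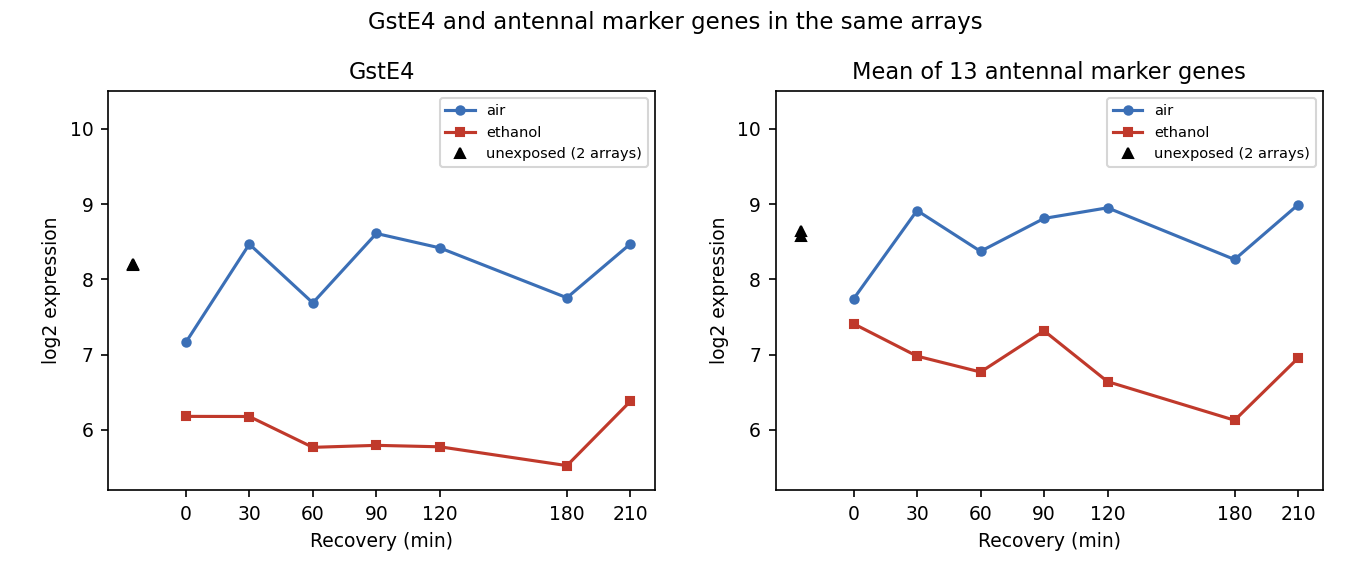
GstE4 (left) and the mean of 13 antennal marker genes (right) in each array, as log2 expression against minutes of recovery, with air in blue, ethanol in red and the 2 unexposed arrays as triangles. In both panels every ethanol array lies below every air and unexposed array, and the lowest air value is that of 0 min.

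The genes whose levels over the 16 arrays were most like those of GstE4 were a10, an antennal protein gene, Jhedup, a juvenile hormone esterase duplication, and Obp84a, an odorant-binding protein gene. Each had a Pearson r of 0.977 with GstE4 over the 16 arrays, which share the 2 exposures and the body-tissue arrays. They differed from air by -1.68, -2.17 and -2.39. Over the 7 matched differences, r with GstE4 was 0.715, 0.76 and 0.919 in the same order. Of these genes, a10 and Obp84a also belong to the antennal marker list above, so their correlations are not separate from it. These correlations describe the 16 arrays and were not tested.

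Against unexposed heads GstE4 fell by 2.25 (SE 0.31, limma adjusted p = 0.0101), a 4.76-fold difference. It was the sole member called in that comparison, 3.45% of members against 0.234% of all genes called lower, and no member was called higher against 0.481% of all genes. Ethanol against air and ethanol against unexposed share the ethanol arrays. Without the 0, 60 and 120 min arrays the fall against air was 2.36 (adjusted p = 0.00887) and that against unexposed heads 2.22 (adjusted p = 0.0131). The call against unexposed heads was lost without unexposed array A (adjusted p = 0.0821) or B (0.229), and with no filter the adjusted p of the fall against air was 0.0882.

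GstE7 (chromosome 2R, 18406924 to 18407688), another epsilon enzyme gene, lies 3 genes away from GstE4 in the same cluster and moved the other way. In air it stood at 9.21, 9.26, 9.30, 9.77, 9.85, 9.76 and 9.85, and after ethanol at 9.61, 10.26, 10.59, 11.61, 11.57, 10.70 and 10.78. Unexposed heads had 9.27 and 9.22. The ethanol arrays at 90 and 120 min were the highest, and the 0 min ethanol array lay within the range of air. The matched differences were 0.40, 1.0, 1.30, 1.83, 1.72, 0.94 and 0.93, so ethanol was higher at 7 of 7 times. The mean rise was 1.16 (SE 0.16, limma adjusted p = 0.0201), and 1.30 with the body-tissue score as a covariate (adjusted p = 0.029). Without the 0, 60 and 120 min arrays it was 1.18 (adjusted p = 0.111), and leaving out 1 time ended the call for 30 min (0.0654), 60 min (0.071), 120 min (0.0672) and 210 min (0.0591). The adjusted p was 0.164 with no filter and 0.069 with no time term. Of all genes, 56 were called in the main test and 24 without the 0, 60 and 120 min arrays. Without 30, 60, 120 or 210 min alone it was 22, 8, 9 and 16, with no filter 0 and with no time term 45.

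Against unexposed heads the GstE7 difference was 1.49 (SE 0.38, adjusted p = 0.0921), which did not pass. The genes most like GstE7 over the 16 arrays were the cytochrome P450 gene Cyp4p1 (r = 0.974), the malic enzyme gene Men (r = 0.967), whose enzyme makes NADPH, and CG33110 (r = 0.963). Men and CG33110 were called higher after ethanol, by 0.84 and 0.96, and Cyp4p1 differed by 0.58 (adjusted p = 0.0672). Over the 7 matched differences r with GstE7 was 0.929 for Cyp4p1, 0.945 for Men and 0.817 for CG33110.

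GstE3 (chromosome 2R, 18400713 to 18401467), the neighbour of GstE4 on its lower-coordinate side, had the widest range over recovery after ethanol. Air arrays read 10.79, 10.82, 11.06, 11.53, 11.29, 10.93 and 11.02. Ethanol arrays read 11.44, 12.44, 12.82, 13.02, 12.35, 10.61 and 10.47, and unexposed heads 10.74 and 10.56. The ethanol arrays from 30 to 120 min were above all air arrays, while those of 180 and 210 min were below all of them. The matched differences were 0.65, 1.62, 1.76, 1.48, 1.06, -0.32 and -0.54. Their mean was 0.82 (SE 0.29, adjusted p = 0.338), and that of 60 and 90 min was 1.62 (SE 0.39, adjusted p = 0.207), so neither passed. The slope of the difference was -0.54 per hour (SE 0.18, adjusted p = 0.213).

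The same order of signs, above air from 0 to 120 min and below it at 180 and 210 min, was seen in 5 of 29 members: GstE1, GstE3, GstE9, GstT3 and GstT4. It was seen in 3.72% of all genes, and was noticed in the values rather than chosen ahead of them. None of the 5 passed the test for ethanol against air or for its slope. GstE1 stood in air at 9.90, 9.85, 9.83, 9.95, 9.88, 9.98 and 10.09, after ethanol at 10.21, 10.34, 10.31, 10.60, 10.30, 9.83 and 9.96, and both unexposed arrays lay within the air range. Its ethanol arrays from 0 to 120 min were above all air arrays, and those of 180 and 210 min lay within the air range. The mean difference was 0.30 (SE 0.11, adjusted p = 0.334). For GstE9 the differences were at most 0.32 in size.

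GstE5 (chromosome 2R, 18404605 to 18405338), the gene on the far side of GstE4, stood at 6.19, 6.47, 6.65, 6.60, 7.13, 7.08 and 6.85 in air and 6.73, 6.82, 7.22, 7.21, 7.71, 7.14 and 6.64 after ethanol. Its levels overlapped between the groups, and it was above air at all times but 210 min. The mean difference was 0.36 (SE 0.11, adjusted p = 0.255). GstE6 stood at 11.80 to 12.37 in air and 11.87 to 12.52 after ethanol, a difference of 0.16 (adjusted p = 0.331), and GstE2 differed by 0.08.

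Of the epsilon genes outside the tandem cluster, GstE11 had the most negative difference. Its air values were 7.07, 6.81, 7.09, 7.12, 7.0, 7.06 and 7.17, its ethanol values 7.02, 7.02, 7.25, 6.80, 6.61, 6.72 and 6.87. The groups overlapped. GstE12, GstE13 and GstE14, the last of which is the gene known as noppera-bo and is needed for steroid hormone synthesis in larvae, were not called either and overlapped between exposures. GstE12 stood at 13.03 to 13.23 in air and 12.84 to 13.20 after ethanol, GstE13 at 8.57 to 8.93 and 8.42 to 8.92, and GstE14 had medians of 8.15 and 8.11.

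**Figure D3:**
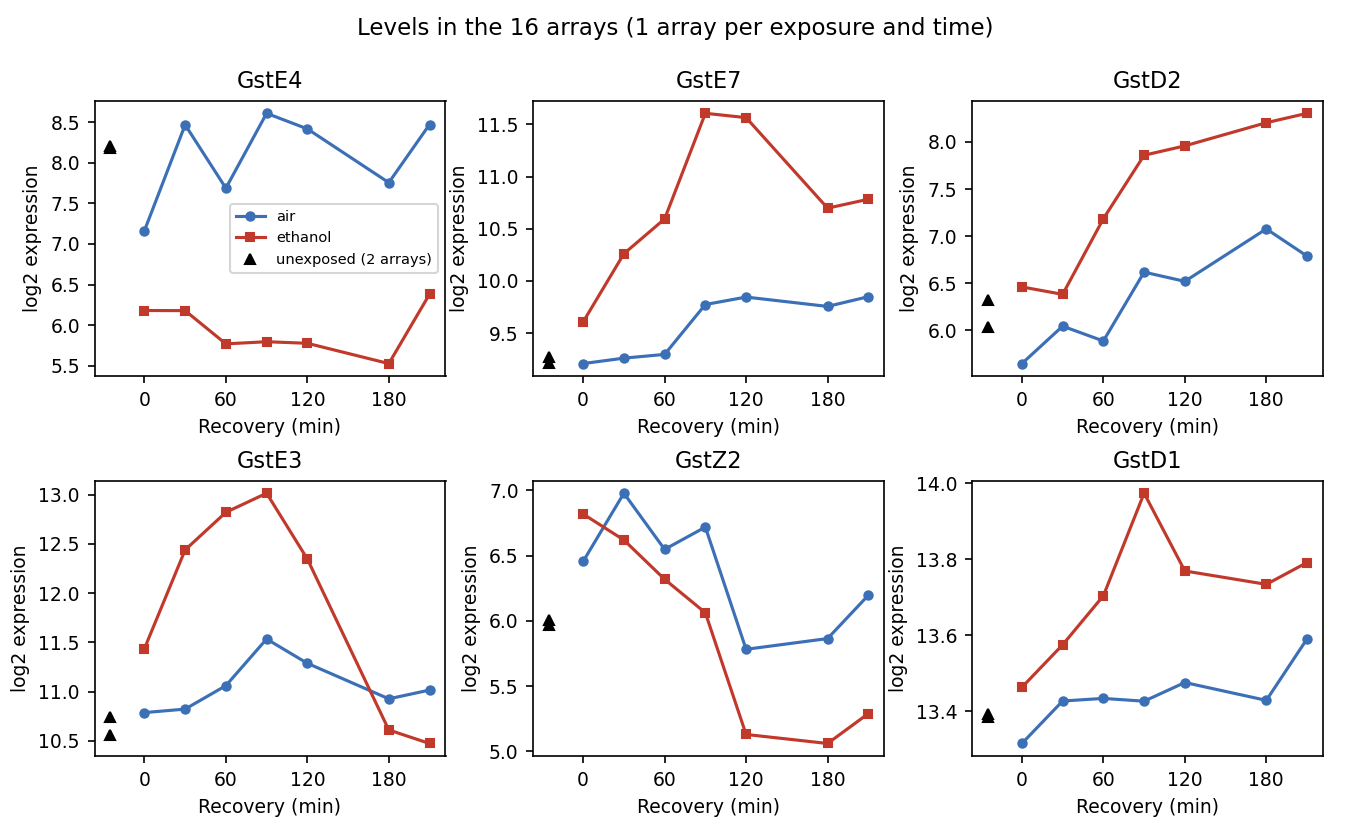
Log2 expression of 6 members in each of the 16 arrays against minutes of recovery, with air in blue, ethanol in red and the 2 unexposed arrays as triangles at the left; each panel has its own vertical scale. GstE4 is lower in all ethanol arrays, GstE7 and GstD2 are above air at each time, GstE3 returns below air at 180 and 210 min, GstZ2 declines in ethanol from 6.82 to 5.29, and the GstD1 panel spans less than 1 log2 unit.

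The delta class is gathered in 1 run on chromosome 3R (12364776 to 12385624), 11 genes within 20849 bases. Only 5 of them, GstD10, GstD9, GstD1, GstD2 and GstD11, passed the filter. GstD3, GstD4, GstD5, GstD6, GstD7 and GstD8, which lie side by side between GstD2 and GstD11, did not pass, nor did GstE10. The levels of these 7 genes ranged from 2.19 to 3.31 over all 16 arrays, close to the array medians, so no difference was testable for them. No statement on the delta class covers these 6 genes.

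GstD2 (chromosome 3R, 12371971 to 12372704), a delta-class enzyme gene, rose after ethanol. In air it stood at 5.65, 6.04, 5.89, 6.62, 6.52, 7.08 and 6.79, and after ethanol at 6.46, 6.38, 7.19, 7.86, 7.96, 8.20 and 8.30, with 6.32 and 6.04 in unexposed heads. The ethanol arrays of 0 and 30 min lay within the air range, and those from 60 min on were above all air arrays. The matched differences were 0.81, 0.34, 1.30, 1.24, 1.44, 1.13 and 1.52, higher at 7 of 7 times. Their mean was 1.11 (SE 0.13, limma adjusted p = 0.0119). The 3 air arrays with body transcripts differed from the other 4 by -0.61 for GstD2. They were also of earlier times on average, and the GstD2 slope in air was 0.37 per hour. Body tissue and time therefore cannot be told apart here. With the body-tissue score as a covariate the rise was 1.13 (limma adjusted p = 0.0346), with 46 of all genes called. Without the 0, 60 and 120 min arrays the rise was 1.06 (adjusted p = 0.25). The call was also lost without 60 min alone (0.057), 120 min alone (0.0599), with no filter (0.119) and with no time term (0.228). Of all genes, 8, 9, 0 and 45 were called in these settings, against 56 in the main test.

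GstD2 also rose with time within the ethanol arrays. Its slope over recovery was 0.58 per hour (SE 0.09, limma adjusted p = 0.0245), which made it the sole member called upward, 3.45% of members against 1.47% of all genes. The slope in air was 0.37 per hour (SE 0.07, adjusted p = 0.23), and the difference between the slopes was 0.22 per hour (SE 0.09, adjusted p = 0.315), so a different slope after ethanol than after air was not shown. The upward call was lost without 0 min (0.0793), 30 min (0.054), 60 min (0.0646) or 180 min (0.0932), with no filter (0.0894), and without 0, 60 and 120 min together (0.241). Of all genes, 262 had a called slope in the main test, against 52, 20, 36, 13, 69 and 0 in these settings.

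The mean of the head fat body markers was also higher after ethanol, with differences of 0.09, 0.30, 0.56, 0.00, 0.69, 1.07 and 0.55 in order of time. Most of this came from 1 gene, Lsp2. The largest difference was at 180 min for the list (1.07), at 90 min for GstE7 (1.83) and at 210 min for GstD2 (1.52). This list kept 3 genes, with means of 10.26 to 11.31 in air, 10.95 to 11.65 after ethanol, and 10.90 and 10.98 in unexposed heads. None of the 3 was called for ethanol against air. Lsp2, a storage protein gene, differed by 1.41 (adjusted p = 0.222) and rose by 2.61 from 120 to 210 min (limma adjusted p = 0.0237), while apolpp, a lipid carrier gene, differed by -0.12 and fit by 0.12. The part of fat body transcripts in the rises of GstD2 and GstE7 was not tested.

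The genes most like GstD2 over the 16 arrays were Elovl7, a fatty acid elongase gene (r = 0.967), CG7675 (r = 0.953) and Spn27A, a serpin gene of the melanization response (r = 0.941). They were higher after ethanol by 0.46, 0.78 and 1.05. Over the 7 matched differences their r with GstD2 was 0.817, 0.715 and 0.705.

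GstD1 (chromosome 3R, 12367817 to 12369268), the best studied delta enzyme and a common reporter of CncC activity, differed by a small amount at every time. Air arrays read 13.32, 13.43, 13.43, 13.43, 13.48, 13.43 and 13.59 and ethanol arrays 13.46, 13.58, 13.70, 13.97, 13.77, 13.73 and 13.79, with 13.39 in both unexposed arrays. Ethanol was above air at 7 of 7 times, but the 0 and 30 min ethanol arrays lay within the range of air. The mean difference of 0.27 (SE 0.06) did not pass (limma adjusted p = 0.0987), though it did with median scaling (0.0415) or with trend and robust variances (0.0245).

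GstD9 stood at 9.73 to 10.06 in air and 9.88 to 10.13 after ethanol, and GstD10 differed by -0.10. GstD11 (chromosome 3R, 12383336 to 12385624), at the far end of the run, was low in all arrays. It stood at 4.26, 4.80, 4.50, 4.93, 4.79, 4.44 and 5.04 in air and at 4.39, 4.45, 4.34, 4.51, 4.41, 3.99 and 4.12 after ethanol, with 4.74 and 4.57 in unexposed heads. Ethanol was below air at all times but 0 min. The mean difference was -0.36 (SE 0.11, adjusted p = 0.255).

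Neighbouring genes in both runs were then compared directly, by the difference between their ethanol minus air differences at the same time. All 11 pairs of kept neighbours were taken in map order. In an exact two-sided sign-flip permutation test over the 7 times, the smallest p this design allows is 0.0156, and 6 pairs reached it, each with an adjusted p of 0.0287 over the 11 pairs. Each of these 6 pairs holds GstE4, GstE7 or GstD2, the members already called for ethanol against air. Since the responses of the members were known when the pairs were formed, these tests size the differences and are no independent support for them.

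GstE4 stood apart from both of its neighbours. Its difference minus that of GstE3 was -2.95 (SE 0.45, exact p = 0.0156), across a gap of 1780 bases between the genes, and GstE4 had the lower value at 7 of 7 times. GstE5 was 2.49 above GstE4 (SE 0.26, exact p = 0.0156), across 518 bases. Here the mean differences had opposite signs, 0.82 for GstE3, -2.14 for GstE4 and 0.36 for GstE5. Both comparisons turn on GstE4, whose values moved with the antennal markers as given above.

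GstE7 differed from the nearest kept gene on each side in size and not in sign. GstE8 was not analysed, so GstE7 and GstE9 may not be immediate neighbours. GstE7 was 1.0 above GstE6 (SE 0.17), 162 bases away, and GstE9 minus GstE7, 1359 bases apart, was -1.02 (SE 0.17), each with exact p = 0.0156. GstE1 and GstE2 differed by -0.21, GstE2 and GstE3 by 0.73 and GstE5 and GstE6 by -0.19 (the second minus the first), and these 3 pairs did not pass (adjusted p between 0.115 and 0.156).

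In the delta run, GstD2 was 0.84 above GstD1 (SE 0.14, exact p = 0.0156), 2702 bases away, with both differences positive. From GstD2 to GstD11, the next kept gene, the response changed sign: GstD11 minus GstD2 was -1.48 (SE 0.24, exact p = 0.0156). These genes are 10631 bases apart with 6 members below the filter between them, so they are not immediate neighbours. GstD10 and GstD9 also had opposite signs, but with a difference of 0.19 (exact p = 0.109). GstD1 was 0.18 above GstD9 (exact p = 0.0469, adjusted p = 0.0737).

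With 6 times the smallest p is 0.0312, so at least 7 of the 11 pairs would have to reach it for any to pass. With the 4 times left after removing 0, 60 and 120 min, no pair can pass, and the same 6 differences were -2.92, 2.56, 0.99, -1.08, 0.76 and -1.59 in the order above. Cross-binding of a probe set to a close relative was not tested, since probe sequences were not used here.

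**Figure D4:**
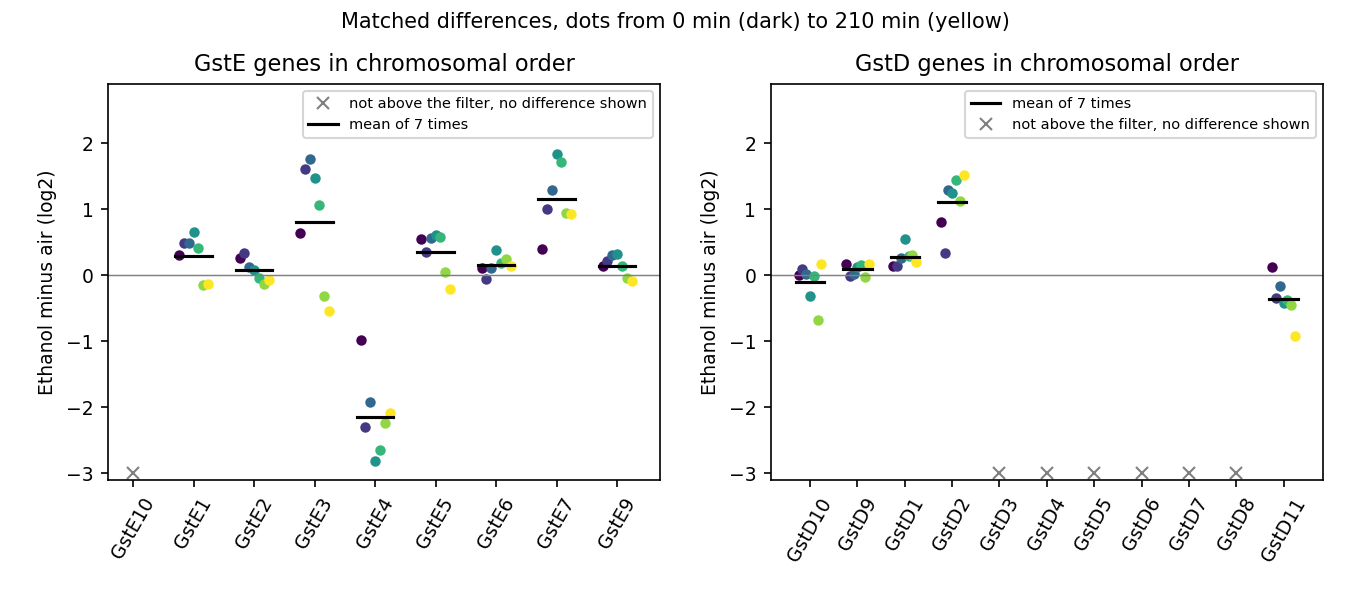
Ethanol minus air difference (log2) at each of the 7 recovery times for the genes of the GstE run (left) and the GstD run (right), in their order along the chromosome; dots run from 0 min (dark) to 210 min (yellow), bars are means over the 7 times, and crosses mark genes below the filter. GstE4 lies below 0 between GstE3 and GstE5, whose means are above 0, and GstD2 is the highest of the delta genes.

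None of the 10 theta, zeta, omega and sigma genes was called for ethanol against air by limma. All 3 omega genes, GstS1 and both zeta genes had negative means, and 3 of the 4 theta genes positive ones. Differences of the theta genes lay between -0.06 and 0.26. GstT4 had a median of 10.30 in air and 10.59 after ethanol, and GstT3 stood at 7.46 to 7.90 and 7.38 to 8.06. GstT1 lay between 7.89 and 8.28 in air and 7.94 and 8.24 after ethanol, and GstT2 between 7.58 and 8.09 and 7.57 and 7.80. The groups overlapped for all 4.

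GstZ2 (chromosome 3R, 9456815 to 9460652), a zeta-class gene, declined over recovery within the ethanol arrays. It stood after ethanol at 6.82, 6.62, 6.32, 6.06, 5.13, 5.06 and 5.29, against 6.45, 6.98, 6.55, 6.72, 5.78, 5.86 and 6.20 in air. Unexposed heads had 5.97 and 6.01. Both groups were high at the first 4 times and low from 120 min, and their ranges overlapped. The slope after ethanol was -0.52 per hour (SE 0.09, limma adjusted p = 0.0303), the sole downward call, 3.45% of members against 1.76% of all genes. In air it was -0.22 per hour (SE 0.10, adjusted p = 0.491), and the difference between slopes was -0.30 per hour (SE 0.07, adjusted p = 0.109).

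GstZ2 was below air at all times but 0 min, with a mean difference of -0.46 (SE 0.14, adjusted p = 0.27). With the body-tissue score as a covariate the difference was -0.72 (adjusted p = 0.0241), and without 0 min it was -0.60 (0.0314). Of all genes, 46 and 104 were called in these settings, against 56 in the main test. The slope call was lost without 0, 30, 60, 90 or 180 min, each alone, with adjusted p from 0.0501 to 0.129, with no filter (0.1), and without 0, 60 and 120 min together (-0.50 per hour, 0.219). Of all genes, 13 to 133 were called with 1 of these times left out. It was 69 with no filter and 0 without 0, 60 and 120 min together, against 262 in the main test. GstZ1, which neighbours it, had a mean difference of -0.09.

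GstO3 had the most negative omega difference. It read 10.87, 10.99, 10.93, 11.01, 10.97, 10.94 and 11.01 in air and 10.99, 10.80, 10.83, 10.85, 10.76, 10.63 and 10.82 after ethanol, with 10.98 and 10.86 in unexposed heads. From 30 min on every ethanol array was below every air array, while the ethanol array of 0 min lay within the air range. The mean difference was -0.15. GstO1 stood at 7.22 to 7.92 in air and 7.26 to 7.64 after ethanol, and GstO2 at 10.73 to 10.90 and 10.59 to 10.98, with overlapping groups. GstS1, the sigma enzyme known for clearing lipid aldehydes, differed by -0.03 to -0.24 at single times, below air at 7 of 7, with a mean of -0.14. Mgstl differed by -0.07 and gfzf by -0.10. A lower probe set of gfzf gave 0.34, so its sign depends on the probe set.

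By window of recovery, calls passed the test from 120 min on, in the window that holds 3 times against 2 in the others. No member was called at 0 and 30 min by limma, where 0.037% of all genes were higher and 0.0% lower. At unadjusted p under 0.05 it was 7 of 29 members (24.1%), against 6.18% of all genes. None was called at 60 and 90 min, where 0.0% of all genes were called in either direction, with 11 members (37.9%) at unadjusted p under 0.05 against 10.4% of all genes. Yet the differences there were of the size of the late ones: 1.27 for GstD2 (SE 0.15, adjusted p = 0.0595), -2.37 for GstE4 (SE 0.33, adjusted p = 0.0899) and 1.57 for GstE7 (SE 0.25, adjusted p = 0.105). From 120 to 210 min, GstD2 rose by 1.36 (SE 0.12, limma adjusted p = 0.0147) and GstE4 fell by 2.32 (SE 0.27, adjusted p = 0.0259), 3.45% of members each way against 0.407% of all genes higher and 0.543% lower. Whether the windows differ was not tested for these genes other than by the slope.

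The late differences were 1.32 for GstD2 and -2.16 for GstE4 without the 0, 60 and 120 min arrays. That setting leaves only 180 and 210 min in this window and 1 time in each other window, so no p-value is given. Without 180 or 210 min alone both calls were lost (GstD2 0.0921 and 0.114, GstE4 0.197 and 0.136), as was that of GstE4 without 120 min (0.0766). Of all 8110 genes, 0 were called in this window without 180 or 210 min and 39 without 120 min, against 77 with all times. The losses without 180 or 210 min are therefore not particular to GstD2 and GstE4. The late difference of GstE7 was 1.20 (SE 0.20, adjusted p = 0.0567).

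The change of the ethanol minus air difference over recovery was not called for any member by limma, beside 0.074% of all genes upward and 0.604% downward. At unadjusted p under 0.05 there were 10 members (34.5%), against 15.5% of all genes. The slope was negative for 23 of 29 members, with a median of -0.09 per hour beside -0.05 for all genes. Early differences were positive in 22 members and late ones in 10, with medians of 0.09 and -0.10 beside 0.07 and -0.07 over all genes, so the shift of the family lay close to that of the whole array.

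Air exposure itself gave no called member. Air against unexposed heads had 0 of 29 called by limma, with a lowest adjusted p of 0.772, beside 0.0% of all genes called in either direction. At unadjusted p under 0.05 there were also 0 members, against 6.41% of all genes. The median difference was 0.06, beside 0.05 over all genes. The slope in air had no call by limma either, beside 0.0% of all genes, and 4 members (13.8%) at unadjusted p under 0.05 against 10.1% of all genes. Air against unexposed shares the unexposed arrays with ethanol against unexposed and the air arrays with ethanol against air.

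Of 12 tested genes of glutathione synthesis and recycling, 1 (8.33%, against 0.419% of all genes higher) was called for ethanol against air: Men, with a rise of 0.84 (SE 0.13, limma adjusted p = 0.0272, higher at 7 of 7 times), and none was lower. The list median was -0.02, with 5 of 12 genes positive, while its mean was above air at 7 of 7 times, by 0.02 to 0.20. The 2 largest differences of the list were those of Men and of Gnmt, 0.77 (adjusted p = 0.545). Gclc and Gclm, the subunits of the enzyme that limits glutathione synthesis, differed by 0.15 and 0.17 and were not called, and Trxr1, the reductase that stands in for glutathione reductase in the fly, by 0.16. From 120 to 210 min Gnmt, a glycine methyltransferase gene, rose by 2.18 (SE 0.27, adjusted p = 0.0273) along with Men.

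Of 10 tested genes of the CncC pathway and of conjugate transport, Prx6c, a peroxiredoxin gene, rose by 1.02 (SE 0.15, limma adjusted p = 0.027), and the other 9 were not called, with a list median of -0.01. The regulators themselves differed by 0.00 (cnc), 0.01 (Keap1) and -0.07 (maf-S). Of 3 other genes whose proteins have a GST fold, se, the eye pigment gene, differed by 0.02, Clic by 0.13 and eEF1gamma by -0.12, with no call by limma.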

How the data were processed

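Deposited values of the Affymetrix Drosophila 2.0 arrays are on a log2 scale. The submitters' processing notes name GCRMA, with a version not given in the sources used here. RNA was extracted with Trizol per the labels' protocols. GCRMA includes a normalization between arrays, so a change in total RNA is not measured. The number of arrays limits the precision.

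Of 18952 probe sets, 183 controls were left out. Symbols came from the array annotation, updated by Entrez ID through the RefSeq gene table: 13647 probe sets had 1, 402 several and 4720 none. The filter asked for log2 4 in 3 or more of the 16 arrays, which 8110 of 17104 genes met. Positions are on Release 6.

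Differences were tested with limma 3.58.1 in R 4.3.3, Benjamini-Hochberg adjusted over all 8110 and called at adjusted p < 0.05, with time as a factor for ethanol against air and a model of 3 groups against unexposed heads. Slopes were linear per hour within 1 exposure. Neighbours were compared with an exact sign-flip test. The models were tested on simulated data.

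Per-array values were given for members called in any comparison and for the 5 largest differences in each direction, as well as GstD1, chosen after its values were seen, with the 3 genes most correlated with each member called for ethanol against air. Members and lists were chosen with earlier results of these data known. Listed genes without a matching probe set were not analysed here. Alternatives were no filter or one at log2 6, scaling by quantiles or medians, trend and robust variances, adjusted p < 0.10, a body-tissue covariate, other probe sets, no time term or a linear one, and leaving out times or arrays.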

Additional observations from a re-analysis of the deposited data

Results flagged for a closer look

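In 58 groups of 7 arrays (29 members, air and ethanol), 5 had a highest array that stood far from the others. Chance alone marks about 1 in 20 such groups. GstO2 was highest at 0 min after ethanol, at 10.98 with the next array at 10.76. GstZ1 was also highest at 0 min after ethanol, at 7.63 with the next at 7.32. GstD10 was highest at 30 min after ethanol, at 5.36 with the next at 5.04. GstT3 was highest at 180 min after air, at 7.90 with the next at 7.64. The gene gfzf was highest at 180 min after air, at 9.24 with the next at 8.84.

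GstE2, GstE14 and gfzf, the last of which is also named above, had ethanol minus air differences that were positive at 0 and 30 min and negative at 120, 180 and 210 min without exception. The late mean lay below the early mean by a change of -0.38 for GstE2 (0.30 early, -0.08 late), -0.30 for GstE14 (0.14 early, -0.16 late) and -0.54 for gfzf (0.19 early, -0.36 late). Over all genes the medians were 0.07 early and -0.07 late, and the share of all genes with these signs was not counted. These differences between windows were not tested. The slopes of the ethanol minus air difference were not called by limma (adjusted p = 0.189 for GstE2, 0.393 for GstE14 and 0.121 for gfzf). For gfzf the lower probe set gave a mean difference of the other sign (0.34).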

How the results depend on the processing

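No result changed direction while called. For ethanol against air, 3 members were called. It was 0 with no filter, 1 without the 0, 60 and 120 min arrays and 1 with no time term. When 1 time was left out it was 1 to 4 (1 without 60 or 120 min). Of all genes, 56 were called, against 0, 24 and 45 in the first 3 of these settings. Without 60 or 120 min, 8 and 9 of all genes were called. For 120 to 210 min, 2 were called. It was 0 with no filter, 5 with trend and robust variances, 4 at adjusted p < 0.10 and 4 with the body-tissue covariate. Of all genes, 77 were called, against 3, 187, 150 and 87 in these settings. When 1 time was left out it was 0 to 2 members (0 without 180 or 210 min, 1 without 120 min). Of all genes, 0 were called without 180 or 210 min and 39 without 120 min. For 60 and 90 min, 0 were called. It was 1 with the filter at log2 6, 1 with quantile scaling, 4 with trend and robust variances and 2 at adjusted p < 0.10. Of all genes, 0 were called, against 15, 9, 58 and 19 in these settings. When 1 time outside this window was left out it was 0 to 2 members, beside 0 to 17 of all genes. Settings without 60 or 90 min leave 1 array of each exposure there, so their counts are not given. For 0 and 30 min, 0 members were called in every setting that kept both times, beside 3 of all genes in the main test. Without the 0, 60 and 120 min arrays this window holds 1 array of each exposure, so no count is given. Against unexposed heads 1 was called after ethanol, beside 58 of all genes, and 2 at adjusted p < 0.10, beside 122. When 1 time was left out it was 1 to 2 (2 without 0 min, beside 136 of all genes). The call was lost without unexposed array A or B, which leaves 1 unexposed array. For the slope in ethanol 2 were called, against 0 with no filter and 0 without the 0, 60 and 120 min arrays. When 1 time was left out it was 0 to 2 (0 without 0, 30, 60 or 180 min). Of all genes, 262 were called, against 69 with no filter and 0 without the 0, 60 and 120 min arrays. Without 0, 30, 60 or 180 min it was 52, 20, 36 and 13 of all genes. The 6 called neighbour pairs became 0 without the 0, 60 and 120 min arrays, where too few times remain to pass, and 0 to 7 when 1 time was left out (7 without 0 min, 0 without any other). With 6 times the smallest p is 0.0312, and 6 pairs at it give an adjusted p of 0.0573, so these losses follow from the number of times. With no filter more genes are tested. For the other settings the cause was not tested. Dim members (GstD3 to GstD8, GstE10) are limited by signal over background.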
